A study of Homo sapiens with 6 samples.

Results

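The thyroid lineage and hormone synthesis genes examined here are 4 transcription factors (PAX8, NKX2-1, FOXE1 and HHEX), the receptor of thyroid stimulating hormone (TSHR), and the 4 genes SLC5A5, TG, DUOX1 and DIO2, which act in making or activating thyroid hormone. They were chosen by name, and 8 of the 9 names have a row in a table of 34738 genes. TSHR has no row in the table analysed here, in which every listed gene has a value above 0 in at least 1 library, so no level of TSHR is given. Human thyroid cancer cells with siRNA knockdown of GDF15 (siGDF15), a secreted cytokine of the TGF-β family, were compared with control cells (NC), with 3 libraries of poly(A) RNA in each group. The study's methods describe transient transfection with Lipofectamine and negative control cells, whereas the submitters' design text calls the control blank, and these sources leave unresolved if NC cells were given a control siRNA. In the labels every library is of the line KHM-5M, with the genotype control for NC and GDF15 for siGDF15, while a legend of the study names TPC-1, another thyroid cancer line. All values therefore come from 1 cell line in culture and describe an acute knockdown. The study counts the 3 libraries of a group as biological replicates.

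The thyroid follicular cell is specified by PAX8, NKX2-1, FOXE1 and HHEX, which are expressed together in no other tissue, and these factors drive the genes of hormone synthesis. The sodium iodide symporter SLC5A5 takes up iodide, the oxidase DUOX1 supplies hydrogen peroxide, and iodide is coupled to tyrosines of thyroglobulin (TG). Through TSHR and cyclic AMP, thyroid stimulating hormone controls this program, and the deiodinase DIO2 converts the prohormone T4 to active T3 in target cells. Thyroid cancers commonly lose parts of the program.

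The 6 libraries held between 51738814 and 68025163 expected counts, with the lowest total in siGDF15 replicate 2. Here 1 read pair corresponds to 4 expected counts, and 3 read pairs, or 12 counts, are the limit that a count of 0 allows (counting error only). The knockdown itself was checked first. GDF15 was at 22.4, 19.3 and 23.1 FPKM (fragments scaled by transcript length and by library size) in NC replicates 1, 2 and 3, and at 10.8, 10.5 and 10.7 FPKM in siGDF15. The siGDF15 values all lay below the NC values, and the fall by 0.95 on the log2 scale passed the test (standard error 0.082, edgeR adjusted p = 2.8e-05). The share of counts from mitochondrially encoded genes was 6.39 to 6.78% in NC and 8.53 to 9.17% in siGDF15, so it moved with the groups, and its part in the differences below was not tested. In bulk RNA, fewer cells of a kind and less RNA per cell cannot be told apart.

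Across the 19360 genes with a mean of at least 0.1 FPKM over the 6 libraries, 20.1% were higher and 22.1% lower in siGDF15 at an adjusted p under 0.05 (edgeR's quasi-likelihood test, two-sided, Benjamini-Hochberg adjustment over these genes). Of the members, 5 entered that test, TG only through its siGDF15 values (its NC mean was 0.0548 FPKM). PAX8 and TG were higher, HHEX was lower, and FOXE1 and DIO2 did not pass, which makes 2 higher and 1 lower of 5. With 42.2% of all tested genes called in either direction, this count is close to the background and says nothing particular about the members. The same 3 members had FPKM ranges that did not overlap between the groups, as 53.9% of tested genes did. The median log2 fold change of the 5 tested members was 0.11, against 0.01 over all tested genes. NKX2-1, SLC5A5 and DUOX1 lay under the minimum of 0.1 FPKM and were left out of the test.

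The members differed in level far more than the groups did. PAX8 was the most abundant in every library. Its mean was 13.98 times that of HHEX, the next member in NC, and 28.1 times that of FOXE1, the next member in siGDF15. In NC the order of mean FPKM was PAX8, HHEX, FOXE1, DIO2, DUOX1, TG, NKX2-1 and SLC5A5. The ranges of DUOX1 and TG overlapped there, as did those of NKX2-1 and SLC5A5, so these neighbours in the order did not differ beyond their spread. In siGDF15 the order was PAX8, FOXE1, HHEX, DIO2, TG, DUOX1, SLC5A5 and NKX2-1, with overlapping ranges for FOXE1 and HHEX and for SLC5A5 and NKX2-1. Thus 3 of the 4 lineage factors were expressed above 1 FPKM, while TG, SLC5A5 and DUOX1, the products that define the working follicular cell, were all below 1 FPKM in each library.

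**Figure D1:**
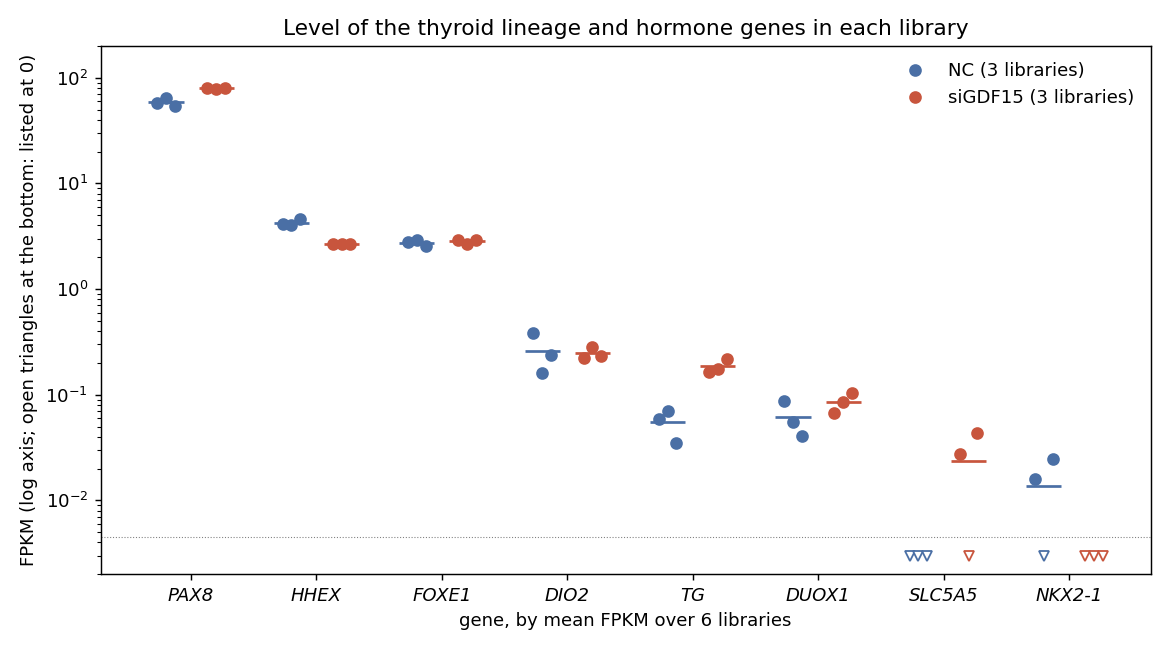
FPKM (log axis) of each member in each library, with NC in blue, siGDF15 in red, a line at each group's mean and open triangles for libraries listed at 0. PAX8 lies near 59.1 FPKM in NC and 79.4 FPKM in siGDF15, HHEX and FOXE1 lie between 2.53 and 4.56 FPKM, and the other 5 members with a row lie at 0.385 FPKM or below.

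The start sites of the lineage factors are shown because these genes share a tissue and a role and yet were measured at different levels and moved differently. Each sequence is 1 promoter window from RefSeq (GRCh38.p14), 250 bases before to 50 bases after the start site, 5′ to 3′ on the strand of the gene. Capitals mark CCAAT boxes (CCAAT) and GC boxes (GGGCGG) on either strand, and overlapping matches run together. The windows are chr2:113278872-113279171 on the minus strand for PAX8, chr10:92689705-92690004 on the plus strand for HHEX, chr9:97852976-97853275 on the plus strand for FOXE1 and chr14:36520183-36520482 on the minus strand for the upstream of 2 listed starts of NKX2-1. For PAX8, HHEX and FOXE1 the start site is that of the gene as measured here. Neither start of NKX2-1 is, since the upstream one lies at 36520232 and the measured gene begins at 36520949.
PAX8: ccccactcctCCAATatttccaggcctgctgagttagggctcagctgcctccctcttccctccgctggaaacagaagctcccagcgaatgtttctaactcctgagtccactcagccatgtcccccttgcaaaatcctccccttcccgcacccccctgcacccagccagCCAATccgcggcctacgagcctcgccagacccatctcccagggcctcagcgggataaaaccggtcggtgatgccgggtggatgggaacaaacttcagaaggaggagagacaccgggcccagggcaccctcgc
HHEX: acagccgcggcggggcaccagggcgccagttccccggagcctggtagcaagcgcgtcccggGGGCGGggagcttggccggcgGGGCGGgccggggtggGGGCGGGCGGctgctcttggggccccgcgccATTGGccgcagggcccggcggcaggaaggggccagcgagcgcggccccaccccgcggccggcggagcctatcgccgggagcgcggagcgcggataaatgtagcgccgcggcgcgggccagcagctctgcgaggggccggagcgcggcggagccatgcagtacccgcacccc
FOXE1: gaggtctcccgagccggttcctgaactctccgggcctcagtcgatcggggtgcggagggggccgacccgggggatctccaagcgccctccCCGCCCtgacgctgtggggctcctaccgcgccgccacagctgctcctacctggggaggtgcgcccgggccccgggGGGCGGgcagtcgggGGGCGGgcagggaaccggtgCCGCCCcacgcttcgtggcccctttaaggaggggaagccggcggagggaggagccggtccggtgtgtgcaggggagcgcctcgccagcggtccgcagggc
NKX2-1: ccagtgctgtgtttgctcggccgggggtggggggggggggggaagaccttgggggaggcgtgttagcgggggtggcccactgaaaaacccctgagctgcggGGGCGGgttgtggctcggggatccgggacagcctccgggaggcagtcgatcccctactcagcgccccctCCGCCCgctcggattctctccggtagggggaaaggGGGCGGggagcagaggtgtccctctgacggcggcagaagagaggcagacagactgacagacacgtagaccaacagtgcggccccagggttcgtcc

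The PAX8 window held 2 CCAAT boxes, no GC box and 13 CpG dinucleotides, close to the median of 14 CpG over 35116 RefSeq promoter windows of the same length. By contrast, the HHEX window held 44 CpG, more than 95.8% of windows, with 4 GC boxes and 1 CCAAT box on the reverse strand. FOXE1 had 32 CpG and 4 GC boxes, and NKX2-1 had 21 CpG and 3 GC boxes. At least 1 CCAAT box was present in 34.6% of all windows and at least 1 GC box in 45.0%, so matches of either kind are common. The TATA box (TATAAA, in 11.5% of windows) was in none of the 4 windows. The GC content was 62% for PAX8, 80.3% for HHEX, 76% for FOXE1 and 69% for NKX2-1, where the median window had 58.7%. The window at the downstream start of NKX2-1, not printed, held 11 CpG, 1 CCAAT box, no GC box and a GC content of 52%, so the values of NKX2-1 depend on the start. These counts describe letters only.

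PAX8 (ENSG00000125618, minus strand of chromosome 2 from 113215997 to 113278921, GRCh38) is the paired-box factor that binds the promoter of TG. It was measured at 58.2, 64.9 and 54.3 FPKM in NC replicates 1, 2 and 3. In siGDF15 it stood at 80.4, 77.5 and 80.4 FPKM. Every siGDF15 library was above every NC library, as for 22.1% of tested genes. The NC libraries averaged 59.1 ± 5.33 FPKM (SD, n = 3), and the siGDF15 libraries averaged 79.4 ± 1.70 FPKM (SD, n = 3), 1.34 times as high. The log2 fold change after TMM scaling was 0.50 (standard error 0.058, 95% interval 0.37 to 0.63, edgeR adjusted p = 0.00015). Among all listed genes PAX8 ranked 431st by mean FPKM, and it was 8th among 1514 genes annotated as transcription factors in the deposited table. A fold of this size lies under the study's own threshold of a log2 fold change of 1, which 4.22% of tested genes passed in the higher direction and 4.4% in the lower.

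A long non-coding RNA, PAX8-AS1 (ENSG00000189223), overlaps PAX8 on the plus strand. It was at 1.41, 1.54 and 1.06 FPKM in NC and at 2.12, 1.87 and 1.99 FPKM in siGDF15. These groups did not overlap either, and PAX8-AS1 rose by 0.65 on the log2 scale (standard error 0.12, edgeR adjusted p = 0.0019). The libraries were made with a dUTP protocol that keeps the strand, but the strand setting used in quantification is not given in the sources used here. Reads of the overlapping pair may therefore have been shared.

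HHEX (ENSG00000152804, plus strand of chromosome 10 from 92689955 to 92695647) is a homeobox repressor needed for the early thyroid primordium, and it moved in the opposite direction. Its level was 4.11, 4.01 and 4.56 FPKM in NC and 2.68, 2.67 and 2.65 FPKM in siGDF15. The siGDF15 libraries lay within a narrow band below all NC libraries, a separation found in the lower direction for 31.8% of tested genes. HHEX fell by 0.59 on the log2 scale (standard error 0.10, 95% interval -0.82 to -0.36, edgeR adjusted p = 0.0015), with means of 4.23 ± 0.294 FPKM (SD, n = 3) and 2.67 ± 0.0181 FPKM (SD, n = 3).

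FOXE1 (ENSG00000178919, plus strand of chromosome 9 from 97853226 to 97856717) is the forkhead factor of thyroid migration and differentiation. It showed 2.81, 2.93 and 2.53 FPKM in NC and 2.94, 2.65 and 2.91 FPKM in siGDF15. The groups overlapped, with the lowest and nearly the highest value both in NC. The log2 fold change was 0.11 (standard error 0.095, edgeR adjusted p = 0.38), and its 95% interval of -0.10 to 0.33 includes changes in either direction.

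NKX2-1 (ENSG00000136352, minus strand of chromosome 14 from 36516392 to 36520949), the homeobox factor shared by thyroid and lung, was barely detected. It was listed at 0.0161, 0 and 0.0246 FPKM in NC, from 4, 0 and 6 counts, and at 0 in all siGDF15 libraries. All 6 values were under the limit of 12 counts, which corresponds to 0.0484 to 0.0637 FPKM of this gene, so no difference was detectable at this depth and no fold is given. The set of factors found in these cells was therefore PAX8, HHEX and FOXE1 without measurable NKX2-1.

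Because total scaling acts equally on all genes of a library, the factors were also compared with each other within libraries. PAX8 over FOXE1 was 20.7, 22.1 and 21.5 in NC and 27.3, 29.3 and 27.7 in siGDF15. HHEX over FOXE1 was 1.46, 1.37 and 1.80 in NC and 0.911, 1.01 and 0.911 in siGDF15. PAX8 over HHEX was 14.1, 16.2 and 11.9 in NC and 30.0, 29.0 and 30.4 in siGDF15. In each of these ratios the groups did not overlap, and the balance between PAX8 and HHEX differed by 2.12 times between the group means. In all, 5 such ratios were compared, and for each the exact permutation test gave a two-sided p of 0.1, the smallest that 3 libraries against 3 allow, which adjustment over the 5 ratios leaves at 0.1.

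**Figure D2:**
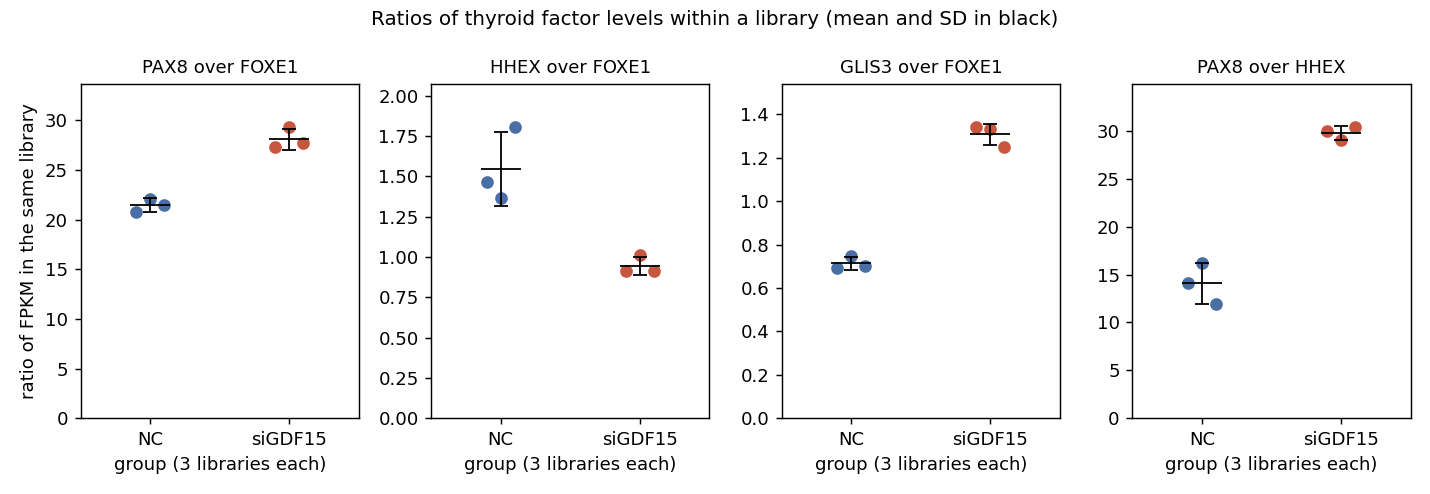
Ratio of FPKM of 2 thyroid factors in the same library, with 1 point per library, NC in blue, siGDF15 in red, and the mean and SD of 3 libraries in black, on axes that start at 0. In siGDF15 the ratios of PAX8 to FOXE1, GLIS3 to FOXE1 and PAX8 to HHEX are higher and that of HHEX to FOXE1 is lower, without overlap of the groups.

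For the 3 factors above 1 FPKM, the protein-coding genes with the most similar profile over the 6 libraries were sought among 13297 tested genes, by the root mean square difference of centred log2(FPKM + 0.1). IFI16, an interferon-inducible DNA sensor, was nearest to PAX8 (0.0239), followed by MAPRE3 (0.0242), which binds microtubule ends, and SEC24D (0.0246), a coat protein of secretory vesicles. HHEX was nearest to PFKP (0.0180), a phosphofructokinase of glycolysis, POLD2 (0.0183), a DNA polymerase delta subunit, and SF3A3 (0.0191), a splicing factor subunit. KMT2C, a histone methyltransferase, lay nearest to FOXE1 (0.0151), before EOLA1 (0.0200) and ATRN (0.0220). This likeness is a description over 6 libraries in 2 groups, and the genes of each comparison share those libraries.

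SLC5A5 (ENSG00000105641, plus strand of chromosome 19 from 17871945 to 17895174), the iodide transporter on which radioiodine uptake depends, was listed at 0 in all NC libraries. In siGDF15 it was listed at 0.0274, 0 and 0.0433 FPKM, from 8, 0 and 12 counts. No value exceeded 12 counts, so a difference was not detectable at this depth.

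TG (ENSG00000042832, plus strand of chromosome 8 from 132866958 to 133134899), the scaffold protein of hormone synthesis, was low but detected in every library. It was at 0.0590, 0.0708 and 0.0346 FPKM in NC, from 50, 60 and 29 counts. The siGDF15 libraries had 0.162, 0.177 and 0.219 FPKM, from 139, 116 and 186 counts. All siGDF15 libraries were above all NC libraries, and all 6 values exceeded the limit of 12 counts. The log2 fold change was 1.85 (standard error 0.30, 95% interval 1.18 to 2.52, edgeR adjusted p = 0.00099), the largest of the members tested, with a mean of 0.0548 ± 0.0185 FPKM (SD, n = 3) for NC against 0.186 ± 0.0294 FPKM (SD, n = 3) for siGDF15. TG reached the minimum of 0.1 FPKM only through its siGDF15 values, so its presence among the tested genes is not independent of this difference. With all listed genes tested without a minimum, the log2 fold change of TG was 1.83 (edgeR adjusted p = 0.0020). The size of the difference also depends on the scale, since limma gave 0.89 on log2(FPKM + 0.1) and 0.17 on log2(FPKM + 1). In relation to PAX8, TG was at 0.00101, 0.00109 and 0.000636 of its FPKM in NC and at 0.00202, 0.00228 and 0.00272 in siGDF15. TG mRNA was therefore higher after knockdown yet stayed at 0.00272 of the PAX8 level or less in each library.

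The adaptor gene SLA lies within TG on the opposite strand. It was at 0.0761, 0.0446 and 0.0331 FPKM in NC and 0.128, 0.0863 and 0.134 FPKM in siGDF15, which did not overlap, and it was under the minimum for the test. How reads of TG and SLA were divided is not given in the sources used here, and its part in the TG difference was not tested.

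DUOX1 (ENSG00000137857, plus strand of chromosome 15 from 45129933 to 45165576) was at 0.0867, 0.0556 and 0.0404 FPKM in NC. In siGDF15 it was at 0.0672, 0.0845 and 0.105 FPKM. The groups overlapped. When all listed genes were tested without a minimum, the log2 fold change of DUOX1 was 0.53 (standard error 0.36, 95% interval -0.30 to 1.35, edgeR adjusted p = 0.37). The antisense gene ENSG00000259539 overlaps its end and was listed at 0 in 2 of the 6 libraries.

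DIO2 (ENSG00000211448, minus strand of chromosome 14 from 80197526 to 80315838) was the most abundant member after the 3 factors, at 0.385, 0.162 and 0.235 FPKM in NC. It was at 0.223, 0.281 and 0.234 FPKM in siGDF15. The highest and the lowest value were both in NC, so the groups overlapped fully. The log2 fold change was -0.01 (standard error 0.31, edgeR adjusted p = 0.98), with a 95% interval of -0.72 to 0.69. Without NC replicate 1 it was 0.37 (adjusted p = 0.33).

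**Figure D3:**
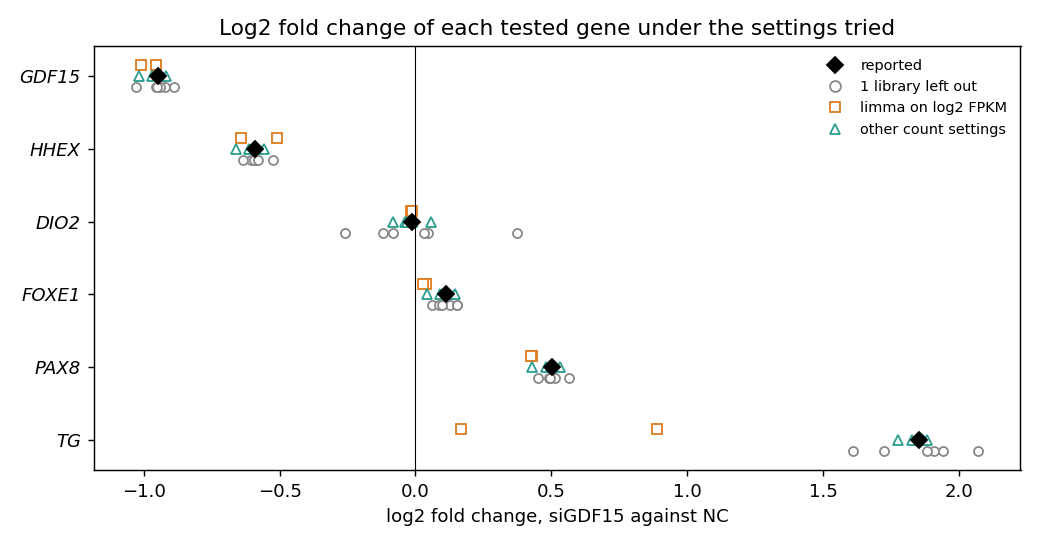
Log2 fold change (siGDF15 against NC) of the 5 tested members and of GDF15 under each way of processing, with the reported value as a black diamond, fits with 1 library left out as circles, limma on log2 FPKM as squares and other count settings as triangles. PAX8 stays between 0.42 and 0.56 and HHEX between -0.66 and -0.51, DIO2 lies on both sides of 0, and TG ranges from 0.17 to 2.07.

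Most other genes of the hormone synthesis apparatus were low too. Of 12 further genes for iodide handling, oxidation and coupling, 10 had a row and 8 of these were under 0.1 FPKM, among them DUOX2 and the maturation factors DUOXA1 and DUOXA2. Only SLC26A7 and ANO1, an anion transporter and a chloride channel that also pass iodide, entered the test, at 0.0856 to 0.285 FPKM and 0.580 to 0.953 FPKM over all libraries, and neither passed (log2 fold changes 0.32 and 0.34, edgeR adjusted p = 0.55 and 0.22, named after their values were seen). ANO1 passed as higher when NC replicate 3 was left out (0.57, adjusted p = 0.023).

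Genes for deiodination, cellular transport and nuclear reception of thyroid hormone were expressed more broadly. All 17 had a row and 13 were tested, of which 4 were higher, 3 lower and 6 not past the test. Their median log2 fold change was 0.06. Over all tested genes 20.1% were higher and 22.1% lower. No list count here or below was tested against these shares. SLC7A5, an amino acid transporter that also carries thyroid hormone, was the most abundant of the list, at 141 to 222 FPKM in NC and 209 to 223 FPKM in siGDF15, and did not pass (log2 fold change 0.33, edgeR adjusted p = 0.094) unless NC replicate 3 was left out (0.52, adjusted p = 0.0018).

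The receptor THRB was at 1.34, 1.28 and 1.60 FPKM in NC and at 1.95, 1.74 and 1.94 FPKM in siGDF15, a rise of 0.49 on the log2 scale (standard error 0.10, edgeR adjusted p = 0.0043). Its paralogue THRA, at 2.24 to 2.63 FPKM over all libraries, had a log2 fold change of -0.03 (adjusted p = 0.79) and was named after its value was seen. Of the heterodimer partners, RXRB rose from 8.85 to 10.2 FPKM in the mean (log2 fold change 0.28, adjusted p = 0.0049), while RXRA fell by 0.65 (adjusted p = 1.8e-05). The corepressor NCOR1 fell by 0.37 (adjusted p = 0.00086). CRYM, which binds T3 in the cytosol, rose by 1.31 from 0.105 FPKM (adjusted p = 0.026), and the selenoprotein synthesis factor SECISBP2 rose by 0.21 (adjusted p = 0.034). Both lost the call in several settings, CRYM to an adjusted p of up to 0.12 and SECISBP2 to up to 0.22. Receptors and their partners thus moved in both directions.

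Although TSHR has no row, all 17 genes chosen from the cascade that the receptor feeds were tested. Of these, 1 was higher, 5 were lower and 11 did not pass, with a median log2 fold change of -0.01. Among all tested genes 20.1% were higher and 22.1% lower. ADCY3, an adenylyl cyclase that makes cyclic AMP, was at 9.80, 9.09 and 9.78 FPKM in NC and at 4.56, 3.98 and 4.25 FPKM in siGDF15. It fell by 1.09 on the log2 scale (standard error 0.069, edgeR adjusted p = 4.9e-06). PRKACB, a catalytic subunit of protein kinase A, was at 7.28, 8.13 and 6.49 FPKM in NC and at 3.44, 3.31 and 2.98 FPKM in siGDF15, and fell by 1.09 as well (standard error 0.089, adjusted p = 1.9e-05). Both genes lay lower in every siGDF15 library than in any NC library.

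The other lower genes changed less. The regulatory subunit PRKAR2B fell by 0.52 on the log2 scale (edgeR adjusted p = 0.0045) and the cyclic AMP responsive factor CREB1 fell by 0.38 (adjusted p = 0.0028). The phosphodiesterase PDE8A, named after its value was seen, fell by 0.28 (adjusted p = 0.0099). GNAS, which encodes the stimulatory G protein subunit, was the most abundant of the cascade at 53.3 FPKM in NC and 56.7 FPKM in siGDF15. It rose by 0.16 (adjusted p = 0.013), although the groups overlapped in FPKM and the call was lost in 7 of 15 alternatives. The catalytic subunit PRKACA (log2 fold change 0.10, adjusted p = 0.11), the regulatory subunit PRKAR1A (0.02, adjusted p = 0.83) and GNA11 (0.04, adjusted p = 0.63) did not pass, although PRKACA did so with a minimum of 1 FPKM (adjusted p = 0.026).

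Of 16 further factors of thyroid development and cofactors of the members, 14 had a row and 12 were tested. Of the tested genes, 4 were higher, 1 lower and 7 not past the test, with a median log2 fold change of 0.02. The shares over all tested genes were 20.1% higher and 22.1% lower. GLIS3, a zinc finger factor required for thyroid hormone production, was at 1.94, 2.20 and 1.77 FPKM in NC. It was at 3.95, 3.53 and 3.64 FPKM in siGDF15. The groups were well apart, and GLIS3 rose by 0.99 on the log2 scale (standard error 0.080, edgeR adjusted p = 1.9e-05). Against FOXE1 in the same library, GLIS3 was at 0.692, 0.749 and 0.701 in NC and at 1.34, 1.33 and 1.25 in siGDF15, so it passed from below to above FOXE1.

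The coactivator WWTR1 (TAZ), which binds PAX8, was abundant at 45.8 FPKM in NC and 50.4 FPKM in siGDF15 and rose by 0.21 (edgeR adjusted p = 0.0050). The acetyltransferase EP300 rose by 0.17 (adjusted p = 0.016), a call lost in 6 of 15 alternatives, with an adjusted p of up to 0.19. NKX2-5, a homeobox factor of the early thyroid and the heart, was at 4.07, 3.56 and 5.36 FPKM in NC and 2.75, 2.77 and 2.49 FPKM in siGDF15. It fell by 0.62 (adjusted p = 0.015), and did not pass without siGDF15 replicate 3 (adjusted p = 0.060).

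**Figure D4:**
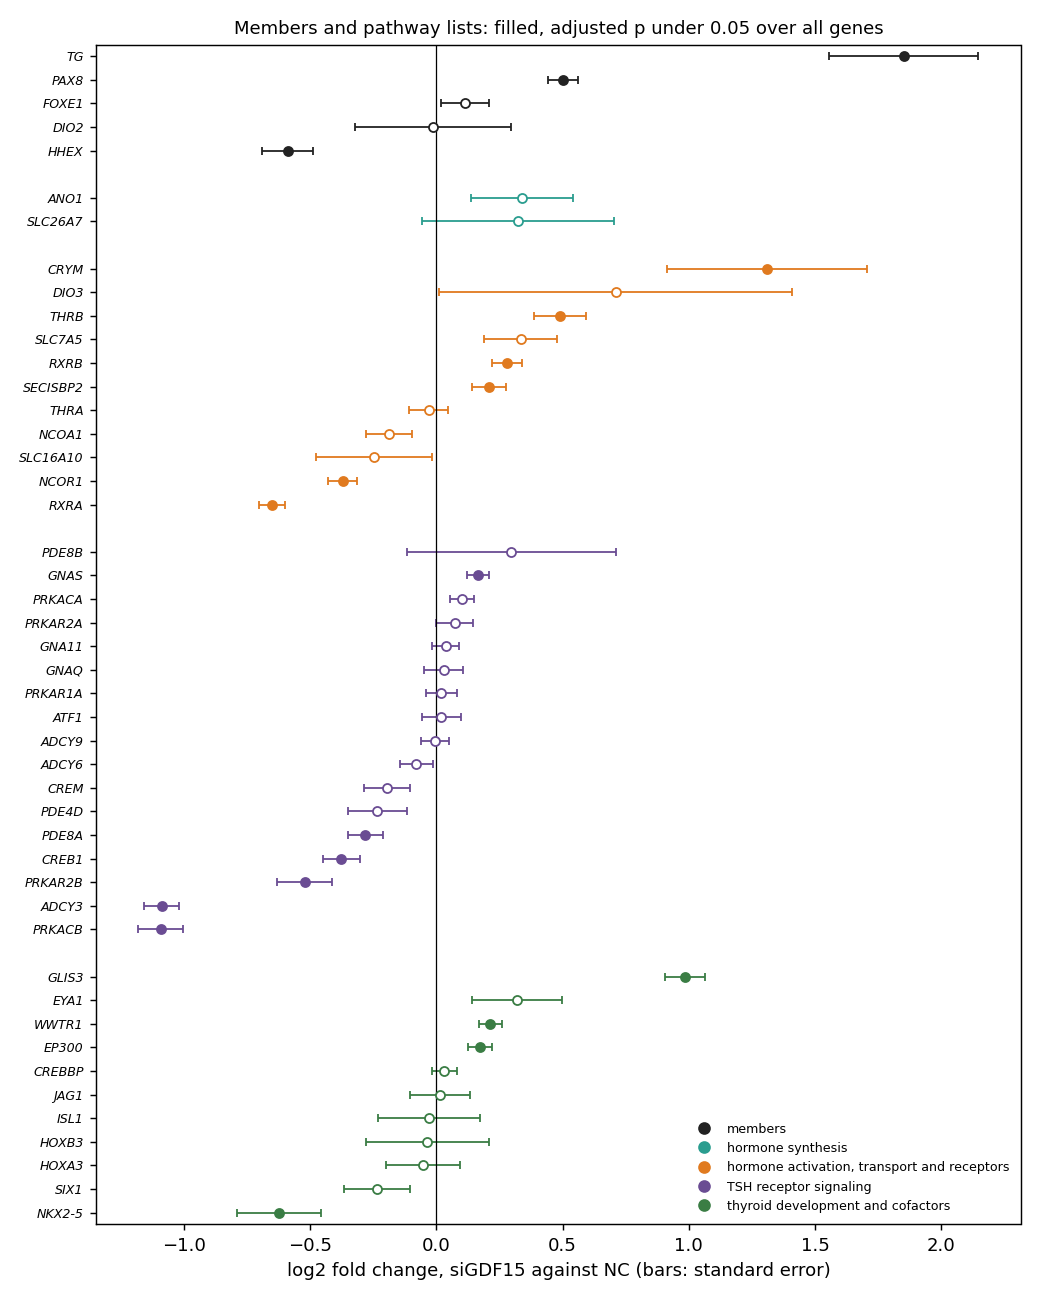
Log2 fold change of siGDF15 against NC (points, with the standard error as bars) of the 5 tested members and tested genes of 4 lists (those reported here), with filled points for an adjusted p under 0.05 over all genes. TG, CRYM, GLIS3, PAX8 and THRB lie to the right, and HHEX, NKX2-5, ADCY3, PRKACB, PRKAR2B and RXRA to the left. Most other points cross or lie near 0.

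The 16 genes of the thyroid differentiation score, an established list that includes all 9 members, hold 14 with a row and 7 that were tested. PAX8, GLIS3, TG and THRB were higher, against 20.1% of all tested genes, none was lower and 3 did not pass. The median log2 fold change was 0.49. This list shares its tested genes with the values above and adds no separate evidence.

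Markers of other cells were read beside these results. Of 10 markers of parafollicular C cells, the calcitonin cells of the thyroid, CALCA has no row in the table analysed here, 5 were under 0.1 FPKM, and none of 4 tested passed. Their summed level was 5.88 to 6.93 FPKM in NC and 5.92 to 6.18 FPKM in siGDF15, most of it the receptor gene RET at 3.81 to 4.68 FPKM, named after its values were seen. All 8 fibroblast markers were tested and none passed with all 6 libraries in edgeR, with sums of 31.7 to 41.0 FPKM and 33.3 to 38.7 FPKM and the most abundant, COL3A1, at 15.1 and 15.8 FPKM. Without NC replicate 3, COL3A1 and DCN passed as higher (log2 fold changes 0.23 and 0.36, adjusted p = 0.024 and 0.043), and THY1 did so with DESeq2 (adjusted p = 0.048). Of 9 endothelial and immune markers, 3 were tested and CD14 rose from 0.199 to 0.671 FPKM (log2 fold change 1.81, edgeR adjusted p = 0.0026), while CSF1R, another myeloid marker, had a mean of 0.154 FPKM in NC and of 0.0859 FPKM in siGDF15, with every siGDF15 value under the NC values, and did not pass (log2 fold change -0.74, adjusted p = 0.13). The markers PTPRC, CD3E, VWF and CDH5 were at or near 0. PECAM1, another endothelial marker, was detected at 0.0726 to 0.161 FPKM over all libraries and did not pass (log2 fold change 0.59, edgeR adjusted p = 0.16). The summed level of the list was 0.333 to 0.620 FPKM in NC and 0.802 to 0.979 FPKM in siGDF15.

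Epithelial and mesenchymal genes were both abundant. Of 12 epithelial markers, CLDN1 (log2 fold change 0.28, edgeR adjusted p = 0.0014) and CLDN4 (0.41, adjusted p = 0.042) were higher and 10 did not pass, and CLDN4 lost the call in 11 of 15 alternatives, with an adjusted p of up to 0.14. KRT18 was at 92.6 and 93.9 FPKM, KRT8 at 15.8 and 18.0 FPKM and KRT19 at 13.2 and 14.4 FPKM in NC and siGDF15. The summed epithelial level was 132 to 185 FPKM in NC, from replicate 2 to replicate 3, and 166 to 175 FPKM in siGDF15. Without NC replicate 3, the markers KRT18, KRT8, KRT7, EPCAM and CDH1 also passed as higher (log2 fold changes 0.23, 0.54, 0.66, 0.64 and 0.85). With all 6 libraries KRT7 and CDH1 passed with DESeq2 (adjusted p = 0.021 and 0.022), and CDH1 at a minimum of 1 FPKM (adjusted p = 0.049). Of 10 mesenchymal markers, MMP2 (0.89, adjusted p = 1.2e-05) and FN1 (0.44, adjusted p = 0.0011) were higher. TWIST1 and TWIST2 were lower (log2 fold changes -0.63 and -0.54, adjusted p = 0.017 and 0.014), and neither passed without siGDF15 replicate 2 (adjusted p = 0.057 and 0.051), nor TWIST2 without siGDF15 replicate 3 (adjusted p = 0.055). VIM was at 400 and 355 FPKM and did not pass (log2 fold change -0.10, adjusted p = 0.17), but passed as lower in the 3 settings without TMM or DESeq2 scaling (log2 fold change -0.17). The part of these changes in the differences of the members was not tested.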

How the data were processed

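Poly(A) RNA of 3 NC and 3 siGDF15 libraries was sequenced as read pairs of 150 bases. Per the labels and the study's methods, the authors used fastp, HISAT2, StringTie and edgeR on GRCh38 (versions not given in the sources used here) and deposited FPKM values (relative to transcript length and mapped fragments) and whole-number expected counts derived from coverage without normalization. The value 4 made up 15.6% of counts from 1 to 20, which was used as the worth of 1 read pair. The deposited columns of the authors' own comparison (fold changes, p-values) were not used.

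Expected counts were tested, for genes averaging 0.1 FPKM or more, with edgeR 4.0.16 (quasi-likelihood, TMM, R 4.3.3, adjusted p under 0.05). TMM factors were 1.01 to 1.04 in NC and 0.973 to 0.978 in siGDF15. The fit was tested on simulated data in which 200 genes, all with a mean above 200 counts, were changed. That simulation changed no gene with counts as low as those of TG. Alternatives used limma 3.58.1 on log2(FPKM + pseudocount), DESeq2 1.42.0, other scalings, other minimums, counts divided by 4, a replicate block and each library left out. Figures and tables used Python 3.11.15, scipy 1.17.1 and matplotlib 3.10.9. Members, lists and tests were chosen with earlier results of these data known. Named genes were the members, up to 4 called genes per list and direction by p-value, and list genes at 10 FPKM or more. Fixed cell type markers and the 3 genes most like a member were also named. Genes overlapping a member were too, with the nearest tested gene at 1 FPKM or more on each side. Some genes that this rule names are counted in their lists and not reported here.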

Additional observations from a re-analysis of the deposited data

How the results depend on the processing

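Of 16 results (the log2 fold changes of GDF15 and the 5 tested members, and the counts of called genes among the members and 4 lists), each was recomputed under 15 alternatives, except that TG and DIO2 gave no value at a minimum of 1 FPKM. In 217 cases a fold change kept its direction and its side of the threshold, or a count stayed within 1.5 times its reported value. The former held for GDF15, PAX8, HHEX and FOXE1 in all 15, and for TG wherever it was tested. PAX8 ranged from 0.42 to 0.56 (adjusted p up to 0.0018), HHEX from -0.66 to -0.51 (up to 0.0093), GDF15 from -1.03 to -0.89, and FOXE1 from 0.03 to 0.15 without passing. TG ranged from 0.17 on log2(FPKM + 1) to 2.07 and had an adjusted p of up to 0.033. At a minimum of 1 FPKM, 1 member was called higher instead of 2. With each library left out in turn, DIO2 lay between -0.26 and 0.37, and with a replicate block at 0.059, never past the threshold. For genes of hormone activation, transport and receptors, 2 rather than 4 were higher with limma at either pseudocount, without a filter and with the replicate block, and 2 to 4 with a library left out. In the TSH receptor cascade, GNAS lost its call, which left 0 higher, by total counts without TMM, with limma at either pseudocount and without a filter, and 2 were higher at a minimum of 1 FPKM. Leaving out a library gave 0 to 1 higher in the cascade, 0 to 1 higher in hormone synthesis (1 without NC replicate 3) and 0 to 1 lower in thyroid development (0 without siGDF15 replicate 3). The cause was not tested.

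The replicate numbers did not pair the libraries, since the same-numbered NC and siGDF15 libraries correlated at 0.0095, -0.027 and -0.0067 in their deviations from the group means, and not every library correlated best with its own number. The replicate block gave 7529 called genes against 8169 without it. Depth limits NKX2-1 and SLC5A5, which held at most 12 counts in any library.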

Other observations

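For comparison, the nearest tested gene with a mean of at least 1 FPKM on each side of a member was read. Genes nearer to a member but below that level, such as PTCSC2 beside FOXE1 and DUOXA1 beside DUOX1, were passed over. HHEX lies 34562 bases from KIF11, a mitotic kinesin, which was at 24.2, 26.1 and 24.4 FPKM in NC and at 7.80, 6.70 and 6.25 FPKM in siGDF15 (log2 fold change -1.77, edgeR adjusted p = 9.8e-07). On its other side EXOC6, of the exocyst complex, fell by 0.35 (adjusted p = 0.015) and did not pass without siGDF15 replicate 2 or siGDF15 replicate 3 (adjusted p = 0.059 for either). Both neighbours of FOXE1 rose, the DNA repair gene XPA by 0.84 (adjusted p = 9.1e-05) and TRMO by 0.40 (adjusted p = 0.0013), while FOXE1 did not pass. Next to PAX8, CKAP2L, a spindle protein gene 451379 bases away, fell by 1.92 (adjusted p = 2.0e-06) and CBWD2 did not pass (adjusted p = 0.25). Beside the nearly silent NKX2-1, MBIP was at 4.83 FPKM in NC and 4.62 FPKM in siGDF15 and did not pass (adjusted p = 0.94), and PAX9 fell by 0.40 (adjusted p = 0.022).

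The PAX family was examined after its values were seen. PAX2, like PAX8 a factor of the developing kidney, was at 3.28 to 3.84 FPKM in NC and 3.21 to 3.70 FPKM in siGDF15 and did not pass (log2 fold change 0.04, edgeR adjusted p = 0.75). PAX6, a factor of the eye and pancreas, fell by 0.56 from 1.01 FPKM (adjusted p = 0.00048). PAX5, a factor of B cells, was at 1.51, 2.17 and 0.892 FPKM in NC and at 0.804, 0.699 and 0.639 FPKM in siGDF15 and fell by 1.01 (adjusted p = 0.014), with an adjusted p of 0.052 without siGDF15 replicate 2 and 0.058 without siGDF15 replicate 3. PAX9 did not pass without NC replicate 1 (adjusted p = 0.077), siGDF15 replicate 1 (0.072) or siGDF15 replicate 2 (0.062). PAX1, PAX3, PAX4 and PAX7 were each listed above 0 in a single library at most.

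Among the other neighbours, PHF20L1 beside TG fell by 0.21 (edgeR adjusted p = 0.029, up to 0.099 in the 5 alternatives in which it did not pass), and NDRG1, at 12.6 to 24.9 FPKM in NC, did not pass (adjusted p = 0.94) unless NC replicate 2 was left out (log2 fold change 0.29, adjusted p = 0.021). SHF, 1638 bases from DUOX1, rose by 0.57 (adjusted p = 0.0054), and SORD on its other side did not pass (adjusted p = 0.070) but was lower in 4 alternatives. The nearest genes to DIO2 that qualified were far away, ADCK1 at 2262512 bases and GTF2A1 at 859614 bases. ADCK1 rose by 0.46 (adjusted p = 0.0091) and GTF2A1 fell by 0.37 (adjusted p = 0.0013). CCDC124, beside SLC5A5, did not pass (adjusted p = 0.64).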
